A study of Mus musculus with 12 samples.

Results

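The transcripts of 8 genes were followed here: the early growth response factors *Egr1*, *Egr2* and *Egr3*, the EGR-binding corepressors *Nab1* and *Nab2*, and the orphan nuclear receptors *Nr4a1*, *Nr4a2* and *Nr4a3*. They were chosen by gene symbol among the 55335 genes of the count table, and each symbol was listed once. The libraries came from bone-marrow-derived macrophages (BMDMs) and from livers of C57BL/6N mice, with 3 libraries in each of 4 groups. Both genotypes carried *Tshr*, the thyrotropin (TSH) receptor gene, with loxP sites placed from exon 10 to the stop codon. In *Tshr* f/f littermates the gene was intact, and in *Tshr* MKO mice Cre under the promoter of *Lyz2*, which is active in myeloid cells, was to remove it. BMDMs of both genotypes, from male mice that the labels give as 6 weeks old and the methods as 6 to 8 weeks, had 7 days of growth in M-CSF (10 ng/mL) followed by 24 h with TSH (1 ng/mL), so no BMDM library lacked TSH. Livers were from male mice whose high-fat feeding began at 6 weeks of age and lasted 9 weeks, and which were fasted for 8 h and injected with insulin (1.5 U/kg) 5 min before collection, so all livers had seen insulin.

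EGR proteins are zinc-finger transcription factors, and NR4A proteins are nuclear receptors that act without a known natural ligand. Genes of both families are switched on within minutes of a growth factor, hormone or inflammatory signal, through serum response factor at CArG boxes and through CREB at cAMP response elements, and their transcripts are short-lived. NAB proteins bind EGR factors and repress their targets, and EGR factors induce *Nab2*. In macrophages both families are part of the response to inflammatory stimuli, and in liver *Egr1* and the NR4A genes respond to fasting, glucagon and insulin.

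The depth was 28962878 to 40954211 counts per library. The normalization factor of the third BMDM f/f library was 0.738 against 0.993 to 1.114 in the other 5 BMDM libraries. *Tshr* itself had 0, 0 and 2 counts in f/f BMDMs, 0, 0 and 5 in MKO BMDMs and 0 in each liver, too few to check the genotype. *Alb* and the 7 other hepatocyte markers had no counts in f/f BMDMs, and the macrophage markers summed to 15402 to 30320 CPM (counts scaled to library size, with TMM factors) in a BMDM library against 149 to 372 CPM in a liver. The markers thus matched the labelled cell type and tissue. A table of receptor genes in the supplement of the study gives the counts of these livers under the opposite genotype headings, so the direction of every difference in liver below follows the labels of the deposited libraries. The methods give 3 mice per group, without tying a library to a mouse, and pairs of libraries of a group differed by 12.3 to 521 times the counting noise per gene.

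The control regions of the family were read from the RefSeq promoter table (GRCm38.p6), which had entries for 6 of the 8 genes and none for *Egr1* and *Egr3*. The 250 bases before each start were searched on both strands for the core of the cAMP response element (TGACG), the CArG box and the EGR binding motif (GCGNGGGCG). All 3 NR4A genes had 4 copies of TGACG in that window. Of 32536 different promoter windows of this length, 17.85% held at least 1 copy and 0.1383% at least 4. The stretches outside annotated exons are printed here because this feature is shared by the NR4A genes, in the direction of transcription, with each TGACG or its reverse complement in capitals. That of *Nr4a1* is at chr15:101266596-101266845 (plus strand), inside the span of its longer transcripts. That of *Nr4a2* is at chr2:57124004-57124253 (minus strand), and that of *Nr4a3*, which shows 3 of its 4 copies, at chr4:48045055-48045152 (plus strand).
Nr4a1: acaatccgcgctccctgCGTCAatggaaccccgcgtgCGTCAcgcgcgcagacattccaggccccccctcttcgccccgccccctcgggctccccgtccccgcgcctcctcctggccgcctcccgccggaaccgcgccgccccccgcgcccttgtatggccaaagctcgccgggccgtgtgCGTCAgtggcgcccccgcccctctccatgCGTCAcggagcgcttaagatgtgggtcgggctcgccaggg
Nr4a2: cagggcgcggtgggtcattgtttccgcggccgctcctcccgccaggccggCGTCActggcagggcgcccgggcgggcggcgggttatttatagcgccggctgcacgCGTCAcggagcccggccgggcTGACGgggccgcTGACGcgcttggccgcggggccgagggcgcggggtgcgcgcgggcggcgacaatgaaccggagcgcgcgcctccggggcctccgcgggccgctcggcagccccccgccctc
Nr4a3: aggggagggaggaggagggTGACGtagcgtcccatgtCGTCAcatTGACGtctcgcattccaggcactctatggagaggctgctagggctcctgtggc
The table had 5 windows for *Egr2*, and 3 overlapping ones among them held 2 copies of TGACG and 1 CArG box. Of all windows, 3.925% held at least 2 copies of TGACG and 1.478% a CArG box. The first of them, at chr10:67537619-67537868 (plus strand), is printed as the promoter that joins both elements, with the CArG box also in capitals.
Egr2: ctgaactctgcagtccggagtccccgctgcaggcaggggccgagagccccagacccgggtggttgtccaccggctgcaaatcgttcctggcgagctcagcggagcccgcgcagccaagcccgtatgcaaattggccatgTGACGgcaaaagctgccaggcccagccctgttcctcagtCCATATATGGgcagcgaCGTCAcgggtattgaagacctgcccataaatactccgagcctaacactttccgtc
The EGR motif was found once in the windows of *Nr4a1* and *Nr4a2* and, counting overlapping matches, 3 times in that of *Nab1*, against at least once in 4.742% and at least 3 times in 0.1414% of all windows. The windows of *Nab2*, *Nr4a3* and *Egr2* had none. A match describes these letters and is not evidence of a bound site.

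By the GENCODE M21 annotation of GRCm38, *Egr2* lies at chr10:67535475-67542188 and *Egr3* at chr14:70077203-70082614, both on the plus strand, and *Egr1* is on the plus strand of chromosome 18. *Nab1* lies at chr1:52457294-52500679 and *Nab2* at chr10:127660918-127668568, both on the minus strand. *Nr4a1* lies at chr15:101254269-101274795 and *Nr4a3* at chr4:48045153-48086447 on the plus strand, and *Nr4a2* at chr2:57106830-57124003 on the minus strand. The exons of a gene, by which levels per kb are scaled, cover 2.941 kb in *Nab2* to 5.987 kb in *Nr4a3*.

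The 8 genes differed widely in level and between the cell type and the tissue. Scaled to exon length, in CPM per kb, the order in f/f BMDMs was *Nab1* (32.5 ± 11.7, SD, n = 3), *Egr1* (19.7 ± 4.81), *Nab2* (12.04 ± 6.09), *Egr2* (9.24 ± 2.16), *Nr4a1* (6.81 ± 7.53), *Nr4a3* (1.78 ± 2.46), *Nr4a2* (1.16 ± 0.521) and *Egr3* (0.815 ± 0.305). Each neighbour in that order overlapped the next in range. In f/f livers the order in CPM per kb was *Nab1* (21.9 ± 2.57), *Nr4a1* (13.8 ± 4.32), *Nab2* (11.3 ± 3.23), *Egr1* (10.1 ± 1.20), *Nr4a2* (0.253 ± 0.116), *Egr2* (0.167 ± 0.0539), *Nr4a3* (0.105 ± 0.113) and *Egr3* (0.0216 ± 0.0188). There the range of *Nab1* lay above that of *Nr4a1*, and *Egr1* lay far above *Nr4a2*, while the other neighbours overlapped. *Egr4*, the remaining EGR gene, had 5, 6 and 0 counts in f/f BMDMs and 0 in the other 9 libraries.

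The EGR genes of a BMDM were a mixture and those of the liver were not. *Egr2*, which macrophages are known to express, had 2108, 1467 and 1088 counts in f/f BMDMs and 9, 14 and 17 counts in f/f livers. The log2 difference was 5.79 (SE 0.53, edgeR quasi-likelihood test, adjusted p = 3.98e-06). *Egr3* had 139, 308 and 109 counts in f/f BMDMs and 0, 4 and 3 in f/f livers, a log2 difference of 5.15 (SE 1.09, adjusted p = 0.00154) that rests on 7 liver counts. Neither overlapped between the cell type and the tissue, and both passed with any single library left out. Both were under the low-count filter when livers were fitted alone, and they entered this fit through their BMDM counts. Their place in the counts that follow is thus not independent of that filter. Of 17246 genes tested, 32.7% were higher in f/f BMDMs at an adjusted p under 0.05, and 4 of the 8 genes were, with 33.7% of all genes and 5 of the 8 higher without overlap. The other calls were *Nr4a3* (log2 difference 4.04, SE 1.43, adjusted p = 0.0266) and *Nab1* (0.57, SE 0.21, adjusted p = 0.0339). *Nr4a3* had 124, 122 and 977 counts in f/f BMDMs and 2, 37 and 9 in f/f livers, and its call was lost without the third BMDM f/f library (log2 difference 1.78, adjusted p = 0.210) or without f/f liver 1 or 3 (adjusted p = 0.0784 and 0.0820). The groups of *Nab1* overlapped, and its call was lost without the third BMDM f/f library (0.27, adjusted p = 0.0879) or without f/f liver 2 or 3 (adjusted p = 0.106 and 0.0563).

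*Egr1*, *Nr4a2*, *Nab2* and *Nr4a1* did not pass between f/f BMDMs and f/f livers. *Egr1* was higher in every BMDM library (log2 difference 0.97, SE 0.44, adjusted p = 0.0718), as was *Nr4a2* (2.20, SE 0.99, adjusted p = 0.0694). Without the third MKO BMDM library, which entered this fit through the shared spread, *Egr1* had an adjusted p of 0.00167. *Nab2* overlapped (0.09, SE 0.34, adjusted p = 0.824), and *Nr4a1* was lower in BMDMs on average (-1.02, SE 1.01, adjusted p = 0.385). Without the third BMDM f/f library the difference of *Nr4a1* was -2.45 (adjusted p = 0.0661).

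**Figure D1:**
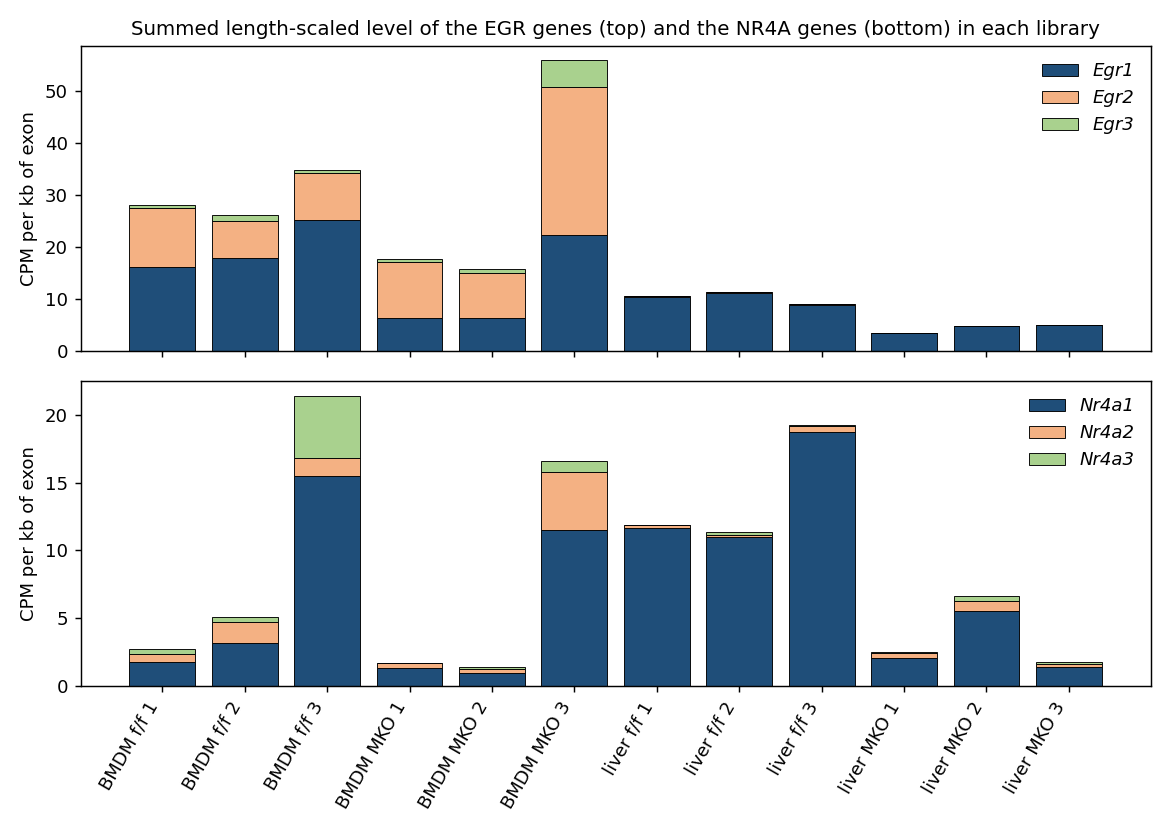
Stacked bars of the summed CPM per kb of exon for the 3 EGR genes (top) and the 3 NR4A genes (bottom), with 1 bar per library in the 4 groups. *Egr1* is almost the whole EGR bar in livers and shares it with *Egr2* in BMDMs, and the third library of each BMDM genotype has the tallest NR4A bars among BMDMs (21.4 and 16.6 CPM per kb).

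Between genotypes, BMDMs under TSH were compared to ask which transcripts differ with the labelled genotype. *Egr1*, the EGR factor most often tied to inflammatory gene induction, had 97.8, 110 and 153 CPM in f/f BMDMs and 38.6, 37.8 and 134 CPM in MKO BMDMs. The first and second MKO libraries were below every f/f library, and the third lay among them. Without TMM factors the third MKO library (136 CPM) lay above every f/f library (97.1, 122 and 113 CPM). The log2 difference was -0.77 (SE 0.54, edgeR, adjusted p = 0.458). Without the third MKO library it was -1.65 (adjusted p = 0.329).

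*Egr2* and *Egr3* were set apart by the same library. *Egr2* had 52.9, 33.6 and 41.8 CPM in f/f and 49.5, 40.6 and 130 CPM in MKO BMDMs. *Egr3* had 3.49, 7.05 and 4.18 CPM in f/f and 3.91, 4.66 and 30.4 CPM in MKO BMDMs. In both genes the first and second MKO libraries lay within the range of the f/f libraries and the third was the highest of the 6. The log2 differences were 0.78 (SE 0.46, adjusted p = 0.400) and 1.40 (SE 0.84, adjusted p = 0.405) by edgeR, and 0.08 and -0.20 without the third MKO library.

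*Nab1*, the corepressor with the highest level of the 8 genes, was the member with the clearest difference by genotype in BMDMs. It had 159, 132 and 254 CPM in f/f and 91.7, 93.3 and 104 CPM in MKO BMDMs, and every MKO library was below every f/f library. The log2 difference was -0.91 (SE 0.26, edgeR, unadjusted p = 0.0115, adjusted p = 0.222), and -1.10 to -0.59 with each library left out in turn. DESeq2 gave an adjusted p of 0.0379, in a fit that called 1216 genes where edgeR called 0. Of 15372 genes tested, 14% were lower and 14.8% higher without overlap between the groups, and *Nab1* was the 1 of the 8 that was. *Nab2* had 40.9, 28.5 and 75.1 CPM in f/f and 36.4, 34.0 and 45.0 CPM in MKO BMDMs, which overlapped (-0.32, SE 0.35, adjusted p = 0.635). Its sign turned without the third f/f library (0.15). *Nab2* shares exon bases with *Stat6*, *Nemp1* and *Gm16229* on the opposite strand, and whether the counting used the strand is not given in the sources used here.

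The NR4A genes had the widest spread among BMDM libraries. *Nr4a1* had 8.46, 15.4 and 73.7 CPM in f/f and 6.16, 4.61 and 54.2 CPM in MKO BMDMs. *Nr4a2* had 3.14, 8.72 and 7.45 CPM in f/f and 2.04, 1.44 and 23.2 CPM in MKO BMDMs. *Nr4a3* had 3.11, 2.79 and 37.5 CPM in f/f and 0.470, 1.15 and 6.94 CPM in MKO BMDMs. The third library of each genotype was the high one in *Nr4a1* and *Nr4a3*, and in *Nr4a2* the third MKO library alone stood out. All 3 genes overlapped between genotypes.

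The estimates for the NR4A genes turned on those libraries. For *Nr4a1* the log2 difference was -0.58 (SE 1.18, edgeR, adjusted p = 0.805), 0.85 without the third f/f library and -2.59 without the third MKO library. For *Nr4a2* it was 0.47 (SE 1.07, adjusted p = 0.827) and -1.89 without the third MKO library. For *Nr4a3* it was -2.33 (SE 1.38, adjusted p = 0.400), -0.06 without the third f/f library and -4.15 without the third MKO library. With the third library of each genotype left out, a choice made after seeing the data, the log2 differences were -1.13 for *Nr4a1* (adjusted p = 0.225), -1.75 for *Nr4a2* (adjusted p = 0.245), -1.85 for *Nr4a3* (adjusted p = 0.191) and -1.43 for *Egr1* (adjusted p = 0.0581), each with 2 libraries per group. The MKO libraries in that fit were the most alike pair of any group, at 12.3 times the counting noise per gene. These adjusted p-values lean on the small spread of that pair.

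**Figure D2:**
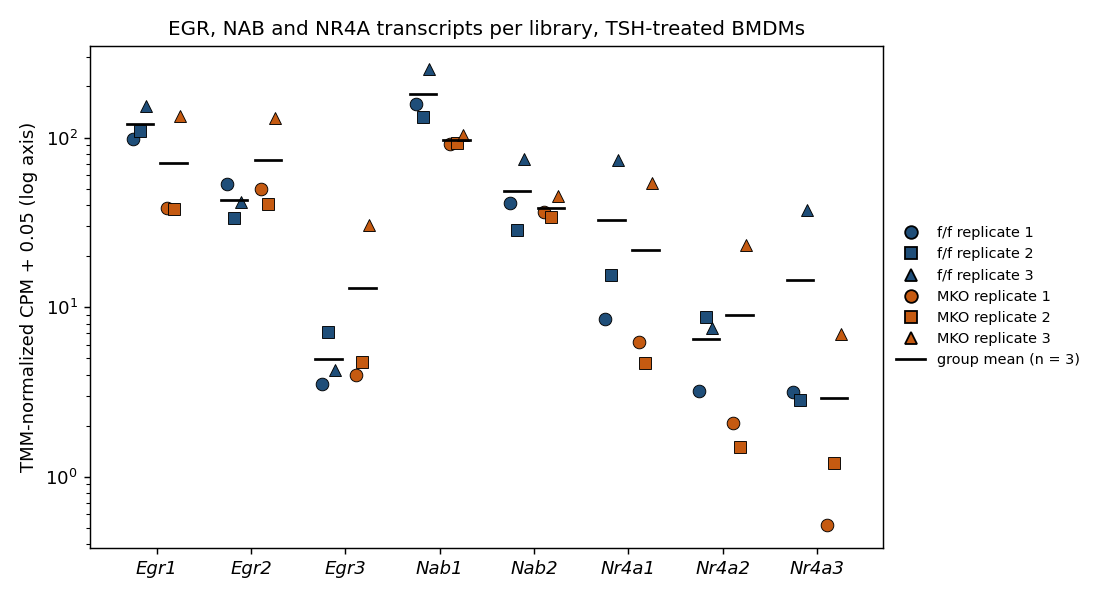
TMM-normalized CPM plus 0.05 on a log axis for each of the 8 genes in the 6 TSH-treated BMDM libraries, f/f in blue and MKO in orange, with a symbol per replicate and a bar at the group mean (n = 3). *Nab1* is the gene whose groups do not overlap, and the third MKO library lies above the other MKO libraries in all 8 genes.

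No member passed an adjusted p under 0.05 in BMDMs by edgeR, where 0% of the genes tested did, and DESeq2 called *Nab1* among 1216 genes. The study took a 2-fold difference with an unadjusted p below 0.05 as its thresholds, and 0 of the 8 passed them, against 5.52% of all genes lower and 3.3% higher. The count was 3 without the third MKO library, 1 without the second f/f library and 4 without the third library of each genotype, where 1347, 1986 and 1111 of all genes passed, against 1356 with every library. Within MKO BMDMs the highest library was over 3 times the lowest for 6 of the 8 genes, against 8.70% of all genes tested, and over 8 times for *Nr4a1*, *Nr4a2* and *Nr4a3* (11.7, 16.1 and 14.8 times), against 1.98%. Within f/f BMDMs it was over 3 times for *Nr4a1* and *Nr4a3* (8.71 and 13.4 times), against 18.3% of all genes. The highest of the 6 BMDM libraries was the third f/f library for 5 of the 8 genes and the third MKO library for 3, where these libraries were highest for 31.1% and 19.2% of all genes tested. Without TMM factors, *Egr1* (113 CPM in the third f/f and 136 CPM in the third MKO library) and *Nr4a1* (54.4 and 54.9 CPM) were highest in the third MKO library instead.

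Ratios within a library do not depend on its depth. *Egr1* over *Egr2*, in CPM per kb, was 1.40, 2.48 and 2.78 in f/f BMDMs and 0.591, 0.707 and 0.786 in MKO BMDMs. The groups did not overlap, and the third MKO library, with the most of both transcripts per kb among MKO libraries, sat with the other MKO libraries. *Egr1* was 57.1 to 72.045% of the EGR sum in f/f BMDMs and 35.8 to 40.0% in MKO BMDMs. *Nab1* over *Nab2* was 2.43 to 3.31 in f/f and 1.66 to 1.97 in MKO BMDMs, again without overlap. These ratios were chosen after their values were seen. Of the 28 pairs of the 8 genes, 28.6% had ratios that did not overlap between genotypes, and of all pairs of the 14917 tested genes with counts in every BMDM library 28.5% did, so the share among the 8 was that of genes at large. The summed NAB level was 1.16 to 1.85 times the summed EGR level in 5 BMDM libraries and 0.542 times in the third MKO library.

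Other values moved with genotype in BMDMs. The 10 macrophage markers summed to 15402 to 18050 CPM in f/f and 20488 to 30320 CPM in MKO BMDMs, without overlap and with none at 0. *Lyz2*, whose promoter drives Cre, made that difference, with 8865, 9837 and 8768 CPM in f/f and 16139, 14528 and 22306 CPM in MKO BMDMs, and the other 9 markers summed to 6537 to 9283 and 5960 to 8014 CPM, which overlapped. The 6 dendritic cell markers summed to 11.3 to 17.6 CPM in f/f and 8.74 to 9.25 CPM in MKO BMDMs, a difference carried by *Ccr7* (6.02, 10.9 and 13.4 against 2.87, 2.37 and 3.83 CPM). The other 5 summed to 4.26 to 5.27 CPM in f/f and 5.42 to 6.37 CPM in MKO BMDMs, the opposite direction, with *Cd209a* or *Xcr1* at 0 in each library but the first and second MKO ones. The part of these genes in the differences above was not tested. The sums of the other 6 marker lists overlapped. *Alb*, *Clec4f* and *Lrat*, which mark hepatocytes, Kupffer cells and stellate cells, had no counts in BMDMs, but other Kupffer cell and fibroblast markers did. The stellate cell and fibroblast markers summed to 627 to 1777 CPM in f/f and 383 to 743 CPM in MKO BMDMs, against 35.2 to 282 CPM in f/f livers. *Col1a1* had 389, 1116 and 365 CPM in f/f and 325, 376 and 215 CPM in MKO BMDMs. The Kupffer cell markers summed to 240 to 552 CPM in f/f and 104 to 463 CPM in MKO BMDMs. The part of these markers was not tested either. In bulk libraries fewer cells of a type and less RNA per cell cannot be told apart.

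Other genes of the same response were counted beside the 8. Of 38 other immediate-early genes tested in BMDMs, 11 were lower and 3 higher in MKO at the thresholds of the study, with a median log2 difference of -0.65, against a median of 0.01 over all genes. None passed an adjusted p under 0.05. The 3 named by rule were higher in every MKO library: *Rhob*, a small GTPase (1.45, SE 0.24, edgeR, adjusted p = 0.218), *Jun*, an AP-1 subunit (1.13, SE 0.20, adjusted p = 0.218), and *Klf10*, a repressor induced by TGF-beta (1.09, SE 0.20, adjusted p = 0.218). *Jun* had 146, 99.2 and 101.8 CPM in f/f and 274, 235 and 250 CPM in MKO BMDMs, so the third MKO library did not stand apart in it as it did in the EGR genes. The list was highest in the third f/f library for 55.3% of its genes and in the third MKO library for 21.1%.

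Of 16 genes described as EGR1 targets, a list that holds *Nab2*, in *Lcn2* and *Socs3* genes that the study picked with the livers of this series, and in *Tnf* and *Ccl2* cytokine genes of a kind it followed in these BMDMs, 7 were lower and 0 higher in MKO BMDMs at the same thresholds, with a median log2 difference of -0.73. *Lcn2*, an iron-siderophore binding protein, had 22.5, 282 and 898 CPM in f/f and 4.59, 2.69 and 2.91 CPM in MKO BMDMs (-6.88, SE 1.37, edgeR, adjusted p = 0.218). *Icam1*, an adhesion receptor for leukocytes, was lower in every MKO library (-2.28, SE 0.61, adjusted p = 0.218). In both genes the third MKO library stayed below every f/f library, as it did not in *Egr1*.

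Of 32 genes of the SRF, CREB, MEF2, ERK and PKA pathways, which act on promoters of this kind, 1 was lower and 0 higher at the thresholds in MKO BMDMs, with a median log2 difference of 0.02. That gene was *Map2k1*, which encodes the ERK kinase MEK1, with 129, 126 and 258 CPM in f/f and 79.6, 80.2 and 77.8 CPM in MKO BMDMs (-1.11, SE 0.30, edgeR, adjusted p = 0.218). *Rps6ka4*, a kinase of CREB and histone H3, had a log2 difference of -0.84 (SE 0.23, adjusted p = 0.218), and *Prkacb*, a catalytic subunit of protein kinase A, of 0.57 (SE 0.12, adjusted p = 0.218). Of 11 NR4A partners and liver targets, 6 were tested in BMDMs and 0 passed the thresholds. Among them the RXR receptor genes *Rxra* (0.83, SE 0.17, adjusted p = 0.218) and *Rxrb* (0.56, SE 0.23, adjusted p = 0.269), partners of NR4A proteins, and the lipid scavenger receptor gene *Cd36* (0.83, SE 0.25, adjusted p = 0.224) were higher in every MKO library.

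In livers the comparison asked which transcripts of the whole tissue, its myeloid cells included, differ with the labelled genotype. *Nr4a1*, also known as *Nur77* and linked in liver to the glucagon response, had the largest difference of the 8 genes. It had 30.6, 28.3 and 48.5 CPM in livers labelled f/f and 5.17, 14.0 and 3.61 CPM in livers labelled MKO. Each MKO liver was below each f/f liver, with the second MKO liver the nearest. The log2 difference was -2.23 (SE 0.52, edgeR, unadjusted p = 0.00423, adjusted p = 0.334), and -3.03 to -1.90 with each library left out.

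*Egr1*, which the study itself picked with these livers, had the lowest p of the genes tested among the 8, at rank 8 of 15062 genes tested (1034, 1319 and 869 counts in f/f, 395, 642 and 465 counts in MKO). The groups did not overlap, and the log2 difference was -1.23 (SE 0.17, edgeR, unadjusted p = 0.000181, adjusted p = 0.303). *Nab2* had 33.0, 20.6 and 20.1 CPM in livers labelled f/f and 11.3, 16.3 and 10.5 CPM in livers labelled MKO, without overlap (-0.95, SE 0.25, unadjusted p = 0.00752, adjusted p = 0.334). Without the first f/f liver it was -0.68. *Nab1* had 72.3, 57.0 and 70.0 CPM against 53.0, 53.1 and 57.2 CPM, where the third MKO liver just passed the second f/f liver (-0.29, SE 0.11, unadjusted p = 0.0363, adjusted p = 0.439).

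*Nr4a2* and *Nr4a3* were rare in liver and had the opposite sign. *Nr4a2* had 21, 16 and 34 counts in livers labelled f/f and 41, 89 and 21 counts in livers labelled MKO (log2 difference 0.83, SE 0.53, edgeR, adjusted p = 0.632). *Nr4a3* had 2, 37 and 9 counts in f/f and 10, 64 and 16 counts in MKO (0.76, SE 0.95, adjusted p = 0.832), and -0.18 without the second MKO liver. Both overlapped, and the second MKO liver was the highest of the 6 in each, as it was the highest MKO liver in *Nr4a1*.

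*Egr2* and *Egr3* were under the filter on low counts in liver and were not tested there. *Egr2* had 9, 14 and 17 counts in f/f and 4, 8 and 2 counts in MKO livers, which did not overlap. Fitted without a filter, a choice made after seeing the data, its log2 difference was -1.67 (SE 0.67, edgeR, adjusted p = 0.593). *Egr3* had at most 4 counts in a liver, near the limit of detection, where 3 counts are 0.0742 to 0.104 CPM before scaling.

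**Figure D3:**
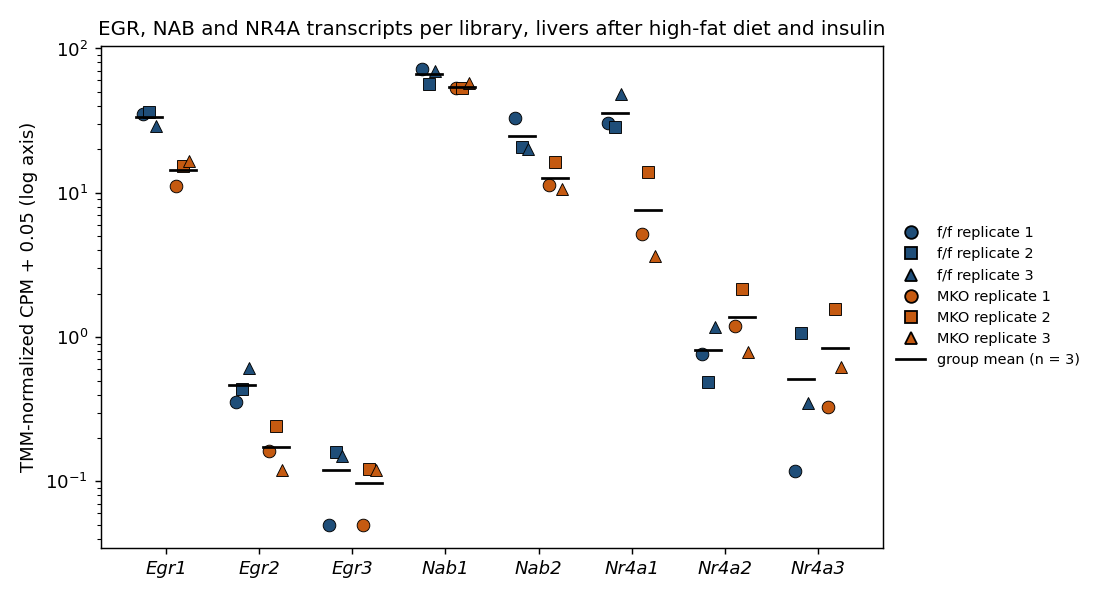
TMM-normalized CPM plus 0.05 on a log axis for each of the 8 genes in the 6 livers, f/f in blue and MKO in orange by their labels, with a symbol per replicate and a bar at the group mean (n = 3). *Egr1*, *Egr2*, *Nab2* and *Nr4a1* show all 3 MKO livers below all 3 f/f livers.

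At the thresholds of the study, 2 of the 6 genes tested in liver were lower (*Egr1* and *Nr4a1*) and 0 higher, against 0.856% of all genes lower and 0.69% higher, and 3 of 6 were lower without overlap, against 7.74% of all genes. The study picked *Egr1* as lower with these same livers, so its place in both counts is no separate result. No gene of the 15062 passed an adjusted p under 0.05 by edgeR, and 5.18% were lower at an unadjusted p under 0.05, among them *Egr1*, *Nab1*, *Nab2* and *Nr4a1*. DESeq2, which called 266 genes there, called *Egr1* (adjusted p = 1.39e-06), *Nr4a1* (adjusted p = 0.000475) and *Nab2* (adjusted p = 0.0298). Without the second MKO liver, *Nab2* passed the thresholds as well (-1.18). The share of counts from mitochondrial genes was 5.55 to 6.80% in livers labelled f/f and 7.72 to 8.15% in livers labelled MKO, without overlap, and its part in these differences was not tested. The sums of all 8 marker lists overlapped between genotypes in liver. The neutrophil markers summed to 86.0, 30.6 and 8.42 CPM in livers labelled f/f and to 9.30, 14.8 and 16.0 CPM in livers labelled MKO, and all 7 that were tested had a negative log2 difference (median -1.38), with *Ngp*, *Ltf* and *Mmp8* past the thresholds of the study (-2.24, -2.29 and -1.37). The first f/f liver held the highest sum, and the part of these markers in the differences above was not tested. The sample IDs begin with A or B, and within each letter the log2 ratio of MKO to f/f means was -1.12 and -1.13 for *Egr1*, -3.03 and -2.34 for *Nr4a1* and -1.35 and -0.55 for *Nab2*, each from 3 livers.

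The make-up of the NR4A transcripts in liver differed with the label. *Nr4a1* was 96.7 to 97.9% of the NR4A sum per kb in livers labelled f/f and 78.7 to 83.7% in livers labelled MKO. *Nr4a1* over *Nr4a2* was 49.8, 74.3 and 49.7 against 5.22, 7.63 and 5.62, and the second MKO liver, with the most *Nr4a1* and *Nr4a2* of the MKO livers, sat with the other MKO livers in this ratio. The summed NAB level was 2.53 to 3.66 times the summed EGR level in f/f livers and 4.73 to 6.72 times in MKO livers, without overlap. *Egr1* was 97.2 to 99.0% of the EGR sum in every liver. Of 15 pairs among the 6 genes tested, 46.7% had ratios without overlap between genotypes, against 15.7% of all pairs of the 14700 tested genes with counts in every liver. The pairs share genes and livers, and no test was made of them.

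**Figure D4:**
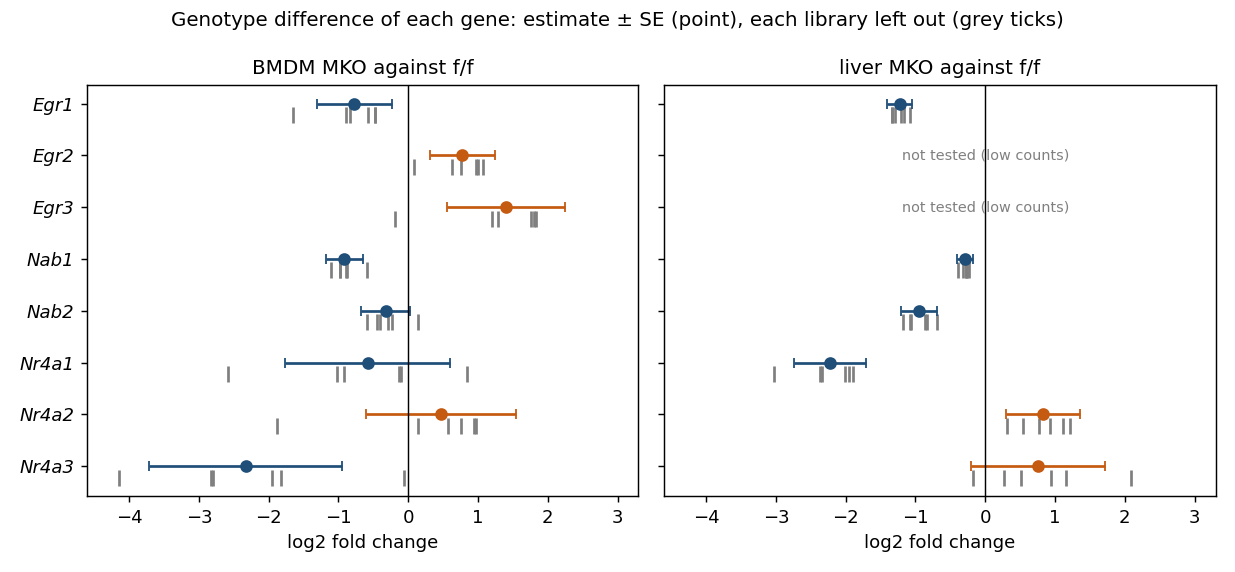
Log2 fold change of MKO against f/f for each gene in BMDMs (left) and livers (right), with a point and bar for the estimate and its SE and grey ticks for the estimates with each library left out. In liver the estimates for *Egr1*, *Nab1*, *Nab2* and *Nr4a1* stay below 0 with any library left out, and in BMDMs the ticks of *Nr4a1* run from -2.59 to 0.85.

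In the livers the other immediate-early genes leaned the same way as *Egr1*. Of 36 tested, 29 had a negative log2 difference, against 50.9% of all genes. The thresholds of the study were passed by 4 that were lower and 0 that were higher, and the median was -0.33, against -0.01 over all genes. *Dusp1*, a phosphatase of MAP kinases, had 141, 179 and 166 CPM in f/f and 54.3, 49.3 and 41.9 CPM in MKO livers (-1.74, SE 0.14, edgeR, adjusted p = 0.0634), the lowest adjusted p of all genes tested in liver. *Csrnp1*, a nuclear protein induced by AXIN1 (-0.99, SE 0.16, adjusted p = 0.303), and *Sgk1*, a kinase induced by serum and glucocorticoids (-1.04, SE 0.22, adjusted p = 0.315), were lower in every MKO liver. None of these passed.

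Of 15 EGR1 target genes tested in liver, 3 passed the thresholds as lower (*F3*, *Lcn2* and *Socs3*) and 0 as higher. Of all genes, 0.856% passed as lower and 0.69% as higher. The study picked *Lcn2* and *Socs3* with these same livers, so their place in that count is no separate result. The median log2 difference of the list was -0.21. *F3*, tissue factor, had 2.60, 2.62 and 3.05 CPM in f/f and 1.14, 1.14 and 0.991 CPM in MKO livers (-1.33, SE 0.25, edgeR, adjusted p = 0.314), and *Icam1* had a log2 difference of -0.35 (SE 0.13, adjusted p = 0.421). Of the 32 pathway genes 0 passed the thresholds, with a median of -0.11. *Mef2d*, a factor that drives *Nr4a1* (-0.38, SE 0.14, adjusted p = 0.425), *Crtc2*, a coactivator of CREB (-0.21, SE 0.09, adjusted p = 0.466), and *Prkar1a*, a regulatory subunit of protein kinase A (-0.20, SE 0.08, adjusted p = 0.478), were lower in every MKO liver. Of 10 NR4A partners and liver targets, 0 passed the thresholds, with a median of -0.01. *Pck1*, the gluconeogenic enzyme PEPCK, was lower in every MKO liver (-0.39, SE 0.18, adjusted p = 0.507).

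**Figure D5:**
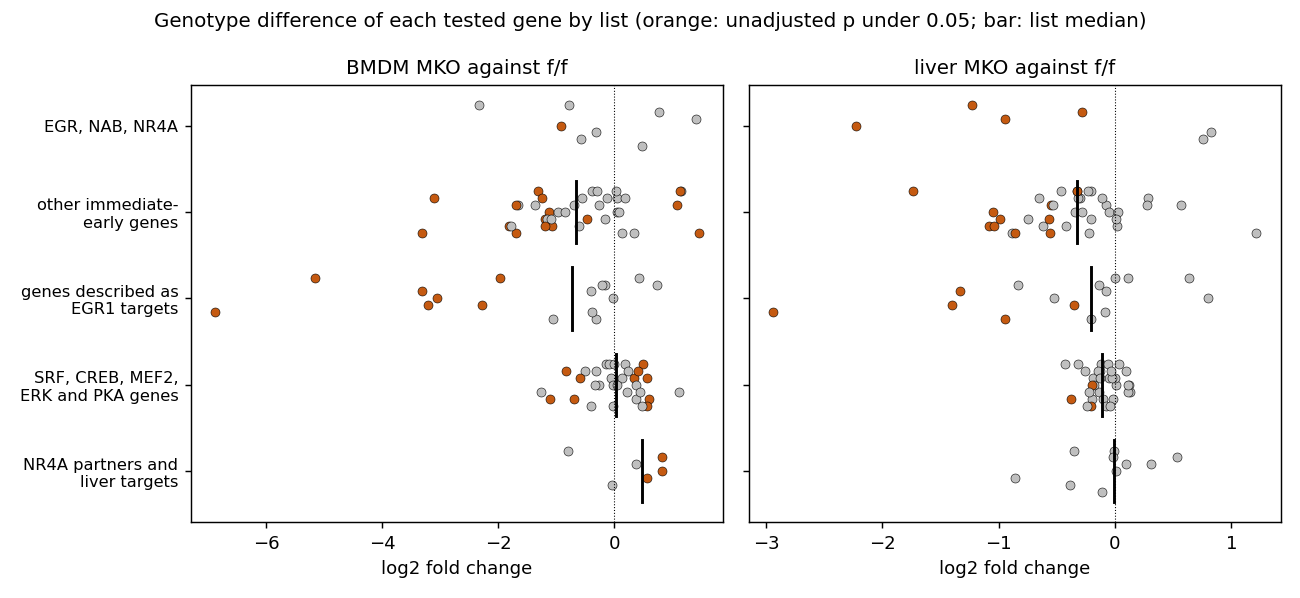
Log2 fold change of MKO against f/f for each tested gene of 5 lists in BMDMs (left) and livers (right), with points in orange at an unadjusted p under 0.05 and a bar at the median of each list other than the 8 genes. In livers 29 of 36 other immediate-early genes lie below 0, and in BMDMs the list reaches from below -3 to above 1.

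Whether the effect of genotype differed between BMDMs and livers was tested as an interaction over the 12 libraries. None of the 8 genes passed an adjusted p under 0.05 by edgeR, and 1 of 17246 genes did (0.0058%). *Egr2* came nearest, with a log2 difference of effects of 2.44 (SE 0.80, edgeR, unadjusted p = 0.0117, adjusted p = 0.236), and 1.73 without the third MKO BMDM library. DESeq2 gave it an adjusted p of 0.0362 and called 801 genes. At the thresholds of the study it was the 1 of 8 genes that passed, against 4.07% of all genes in that direction and 3.96% in the other. *Egr2* was under the low-count filter when livers were fitted alone. It entered this fit through its BMDM counts and had at most 17 counts in a liver. For *Egr1* and *Nr4a1* the differences of effects were 0.46 (SE 0.62, adjusted p = 0.794) and 1.65 (SE 1.43, adjusted p = 0.634), and both turned negative without the third MKO BMDM library (-0.43 and -0.38).

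Between f/f BMDMs and f/f livers the genes around the members differed as well, in fits where 36.6% of all genes were lower in BMDMs. Of 38 other immediate-early genes, 20 were higher and 7 lower in BMDMs at an adjusted p under 0.05, among them the 2 with the lowest p, *Errfi1*, a feedback inhibitor of the EGF receptor (-6.00, SE 0.36, edgeR, adjusted p = 1.71e-07), and *Klf6*, a zinc-finger factor (5.34, SE 0.40, adjusted p = 8.73e-07). *Ier5* (2.32), *Sgk1* (2.45) and *Mcl1* (2.17), an inhibitor of apoptosis, were also higher. Of the 16 EGR1 target genes 9 were higher and 1 lower, among them *Ccl2*, a monocyte chemokine (8.18), *Tgfb1* (4.17), *Cd44*, a hyaluronan receptor (3.94), and *Icam1* (3.93). Of the 32 pathway genes 18 were higher and 4 lower, with *Rps6ka4* (3.20), *Mef2a* (2.39), *Rps6ka1* (1.72) and the coactivator gene *Ep300* (1.34) higher and *Prkar2a* (-2.07) lower. Of 10 NR4A partners and liver targets 7 were lower in BMDMs and 1 higher. *Rxra* (-3.16) and the kinase gene *Stk11* (-1.09) were lower, and the gluconeogenic genes *Pck1* and *G6pc* had no counts in f/f BMDMs, with *Fbp1* at no more than 0.0768 CPM.

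The genes most like *Egr1* and *Nr4a1* in pattern were found by Pearson's r of log2(CPM + 1) over the 6 libraries of BMDMs or of liver, as a description. For *Egr1* in BMDMs they were *Ticam2* (r = 0.994), *Gm10356* (0.988) and *Cep135* (0.985), and in liver *Shld2* (0.995), *Ahdc1* (0.994) and *Kdm6b* (0.989). For *Nr4a1* in BMDMs they were *Ccnt1* (0.992), *Nabp1* (0.990) and *Gm42876* (0.987), and in liver *Pigo* (0.997), *Gm10226* (0.995) and *Gramd4* (0.993). With 6 libraries that share their groups, 36 to 58 of about 15062 to 15372 genes exceeded r = 0.95 for each gene.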

How the data were processed

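The members and the gene lists around them were chosen with earlier results of these data known. The authors deposited counts of reads per gene for 12 strand-specific libraries. Their reads were trimmed with Skewer, and the submitters' processing notes name FastQC 0.11.2, STAR, StringTie and the build mm10, with no role given for each. The deposited counts were used without change. Genes were tested with edgeR 4.0.16 (TMM factors, filterByExpr, robust quasi-likelihood) in R 4.3.3, with limma 3.58.1, and p-values were adjusted by Benjamini-Hochberg over all genes of a fit. Each tissue was fitted on its 6 libraries, and BMDM against liver and the interaction on all 12. The SE is the log2 difference over the square root of F. Levels are CPM scaled by TMM within a tissue, and levels per kb use GENCODE M21 exon lengths and factors over all 12 libraries. Counting error at this depth allows a level of 3 counts, 0.0733 to 0.104 CPM, for a gene with no count. Gene coordinates and promoter sequences are of GRCm38.

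Named by rule were the 8 genes, *Egr4*, *Tshr*, and from each list the genes with an adjusted p under 0.05, at most 5, or else the 3 with the lowest p whose groups did not overlap, with the 3 genes most like *Egr1* and *Nr4a1*. A further gene named by this rule is not reported here. Alternatives were other scaling (RLE, upper quartile), no filter or a mean of 50 counts, DESeq2 1.42.0, each library left out, replicate number as a block, other libraries in the fit, the letter that begins each sample ID as a covariate in liver, and CPM without TMM or per kb. The edgeR and DESeq2 fits were tested on simulated counts.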

Additional observations from a re-analysis of the deposited data

How the results depend on the processing

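In BMDMs the count of members past the thresholds of the study was 0, with 0 to 3 when each library was left out, 2 with a replicate block and 4 without replicate 3 of both genotypes, an alternative chosen after seeing the data. Of all genes 1356 passed, with 828 to 1986 when each library was left out, 1298 with the block and 1111 without those replicates. At an adjusted p under 0.05, DESeq2 called 1 member in BMDMs, 3 in liver and 1 in the interaction, among 1216, 266 and 801 genes, where edgeR called 0 members and 0, 0 and 1 genes. In liver the count past the thresholds was 2, among 233 genes with every library, and 2 to 4 over the libraries left out. Between BMDMs and livers the count at an adjusted p under 0.05 was 4, with 2 to 6, and past the thresholds 4, with 2 to 4. In the interaction it was 1, with 1 to 3 over the libraries left out. It was 2 with a replicate block or without replicate 3 of both BMDM genotypes. Outside the BMDM comparison, the number of all genes passing with libraries left out is not given here. Those ranges thus do not separate a change in the members from a change in the whole fit.

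Some log2 differences turned sign, none of them at an adjusted p under 0.05 on either side, and the cause was not tested. *Nr4a2* in BMDMs passed the thresholds of the study as lower without the third MKO library and without replicate 3 of both genotypes. With each library left out, the ranges in BMDMs were -0.20 to 1.84 for *Egr3*, -0.59 to 0.15 for *Nab2*, -2.59 to 0.85 for *Nr4a1* and -1.89 to 0.97 for *Nr4a2*, and in liver -0.18 to 2.10 for *Nr4a3*. Between BMDMs and livers the range was -0.36 to 0.37 for *Nab2*, and in the interaction -0.43 to 0.77 for *Egr1*, -0.38 to 3.09 for *Nr4a1* and -2.73 to 0.16 for *Nr4a2*. Without replicate 3 of both BMDM genotypes, *Egr3* was -0.28, *Nab2* 0.0335 and *Nr4a2* -1.75 in BMDMs, *Nab2* -0.36 between BMDMs and livers and *Egr1* -0.20 in the interaction. With the replicate block *Nr4a2* was -0.51 in BMDMs. Replicate numbers did not pair the libraries (correlations of same-numbered deviations of 0.152, 0.036 and 0.118 in BMDMs and -0.075, 0.254 and -0.033 in liver), so the block was not used in the main tests.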
